A study of Mus musculus with 36 samples.

Results

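Melatonin at 1 µM, without any inflammatory stimulus, was compared with solvent in RAW 264.7 cells, a mouse macrophage-like line. All genes counted in the 3 libraries of cells given 10-6 M melatonin were set against the 3 libraries of cells given solvent, which makes 6 of the 36 libraries of the series. Both groups were wild type and were collected after 12 h, and they differed by label only in the melatonin; the solvent is not named. The other groups used below for comparison were cells given 0.1 µM, 10 µM or 1 mM melatonin without lipopolysaccharide (LPS), cells given 10 µg/mL LPS, and cells given 1 µM melatonin for 30 min before the same LPS. A dose of 100 µM and the remaining LPS groups, given the other doses for 30 min before LPS, had a smaller part. They entered only the statistical fit, the sums over ferritin loci, and the comparison of single libraries with a dose difference found under LPS. The labels do not say that replicates were separate cultures, so the error behind each p-value is that between libraries and could be technical only. All cells are of 1 line, and in bulk RNA fewer expressing cells and less RNA per cell cannot be told apart.

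Melatonin is a hormone that signals through the G-protein-coupled receptors MT1 and MT2, encoded by Mtnr1a and Mtnr1b, and it is also studied as an antioxidant. In macrophages, inflammatory genes are largely driven by NF-κB, a family of transcription factors held in the cytoplasm by IκB inhibitors; NF-κB induces several of its own inhibitors, so their transcripts are common readouts of its activity. The AP-1 factors, such as Jun, respond within minutes to growth and stress signals. NRF2 is the factor that induces antioxidant enzymes and the ferritin subunits, which store iron.

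The 6 libraries held 5858182 to 6628462 counts, and 16988 of 53465 annotated genes had enough counts to be tested. Levels are given as counts per 1000000 counts of the scaled library (CPM), in the order of replicates 1, 2 and 3. A count of 3 corresponded to 0.449 to 0.512 CPM in these libraries, which is taken as the limit of detection. Adjusted p is that of edgeR's quasi-likelihood test, fitted over all groups, with Benjamini-Hochberg adjustment over all genes tested and a threshold of 0.05. Errors of log2 fold changes are standard errors. Transcripts of Mtnr1a and Mtnr1b had no count in any of the 6 libraries, and in all 36 libraries together they had 1 and 2 counts.

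One library stood apart. The library labelled replicate 1 of 1 µM melatonin differed from replicates 2 and 3 by a chi-square of 31.9 per degree of freedom in each case, whereas replicates 2 and 3 differed from each other by 10.4 and the solvent libraries by 11.9 to 13.7. From replicates 1 and 2 of 1 mM melatonin it differed by 17.3 each, and from replicate 3 of 1 mM by 27.9. That last 1 mM library in turn differed from replicates 2 and 3 of 1 µM by 16.7 and 19 and from its own group by 28.1 and 26.9. From the solvent libraries it differed about as little, by 18.1, 17 and 20.8. So among these 3 groups the 1 µM library labelled replicate 1 lay nearest to 2 of the 1 mM libraries. The 1 mM library labelled replicate 3 lay nearer to 1 µM replicates 2 and 3 and to solvent than to its own group. Distances to the other melatonin doses were not computed.

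The same was seen for single genes and for a set of genes that differed between doses under LPS. Lyz2, which encodes the macrophage lysozyme, was at 6597, 6439 and 6410 CPM in solvent and at 1342, 6333 and 6428 CPM in 1 µM melatonin. The 1 mM libraries had 1514, 1472 and 5872 CPM of Lyz2, so the low value of 1 µM replicate 1 matched 1 mM replicates 1 and 2, and 1 mM replicate 3 was close to solvent. A set of 271 genes differed at least 2-fold between 1 mM and 0.1 µM melatonin under LPS and was not called for LPS against solvent. Measured from solvent, 1 µM replicate 1 showed 18.9% of that difference. Replicates 2 and 3 showed -0.388% and 0.31%, the 1 mM libraries 16.9%, 11.7% and 5.92%, and no other library without LPS more than 7.4%. On this scale LPS with 1 mM lay at 19.6%, 26.5% and 29.8%, and LPS with 0.1 µM at -42.5%, -45% and -38.6%. The difference thus takes in both doses and is no response to 1 mM alone. LPS alone lay at -8.23%, -11.4% and -16.5%, below the solvent libraries at 4.15%, -4.11% and -0.0378%, so LPS moved the set somewhat. The comparison with solvent is therefore given with all libraries and without the library labelled replicate 1, and a value given once without further remark is from all libraries. The likeness to 1 mM was not complete. Principal components, the main axes of difference, were computed over the libraries without LPS. On axis 1 (9.19% of the variance) 1 µM replicate 1 lay at 77.4, and 1 mM replicates 1 and 2 at 64.9 and 72.6. On axis 2 (7.16%) 1 µM replicate 1 lay at -55.6, and those 1 mM libraries at 25.5 and 43.5. Which treatment 1 µM replicate 1 received cannot be told from these files.

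**Figure D1:**
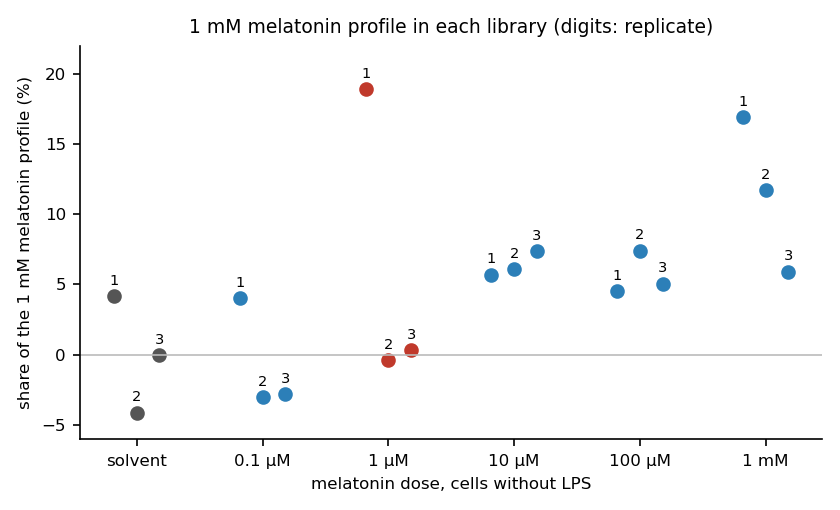
Share of the 1 mM melatonin profile (y axis, percent) in each library without LPS, by dose (x axis); each point is 1 library and the digit is its replicate number. At 1 µM, replicate 1 lies at 18.9%, beside 1 mM replicates 1 and 2 at 16.9% and 11.7%, whereas replicates 2 and 3 lie near 0.

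The summed level of 29 macrophage identity genes was alike in 5 of the 6 libraries. It was 15896 to 16539 CPM in solvent and 16102 and 16104 CPM in 1 µM replicates 2 and 3, against 6825 CPM in replicate 1. Csf1r, the receptor for the macrophage growth factor, followed the same split, with 5309, 5015 and 4847 CPM in solvent and 2465, 5189 and 5066 CPM in 1 µM melatonin. Neither gene passed the test. Markers of other cell types were near the limit of detection. Of 12 lymphocyte markers 7, including Cd3e, Cd4 and Ms4a1, had no count in the 6 libraries, and the list summed to 0 to 1.8 CPM in solvent and to 7.63, 0.325 and 0.683 CPM at 1 µM. All 12 fibroblast and endothelial markers had at least 1 count, with sums of 6.12 to 8.84 CPM in solvent and 0.305, 8.6 and 5.46 CPM at 1 µM. The 10 epithelial and hepatocyte markers summed to 0.449 to 5.5 and 0.153 to 2.22 CPM, with 4 at 0, including Krt5 and Krt19. The 15 erythroid, mast cell and neutrophil markers summed to 0 to 4.08 and 0.153 to 2.9 CPM, with 12 at 0, including Hbb-bs, Kit and Elane.

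Few genes changed. With all libraries 25 genes passed the test: 11 were higher in 1 µM melatonin, which is 0.0648% of the genes tested, and 14 were lower, which is 0.0824%. Genes of NF-κB feedback and of its inflammatory output were among those that fell, and ferritin light chain loci and antioxidant enzymes were among those that rose. At least a 2-fold change was seen in 11 of the 25, and 18 were annotated as protein-coding. In all 25 the 3 libraries of 1 group lay above the 3 of the other, as they did in 11.5% of all genes tested. The median log2 fold change of all genes was 0.

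Without replicate 1, 66 genes passed the test of 18450: 41 higher (0.222%) and 25 lower (0.136%). The 2 sets shared 15 genes, which is 60% of the 25 and 22.7% of the 66. Of the 66, replicate 1 lay beyond the nearest solvent library in the same direction in 31 genes and on the other side of the solvent mean in 23. The call set with all libraries was fragile: leaving out solvent replicate 1, 2 or 3 left 3, 5 and 10 genes, and a fit of the 6 libraries alone called 0 (820 at an unadjusted p under 0.05), where DESeq2 over all groups called 97. Without replicate 1 the fit of the 2 groups alone called 189 genes.

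**Figure D2:**
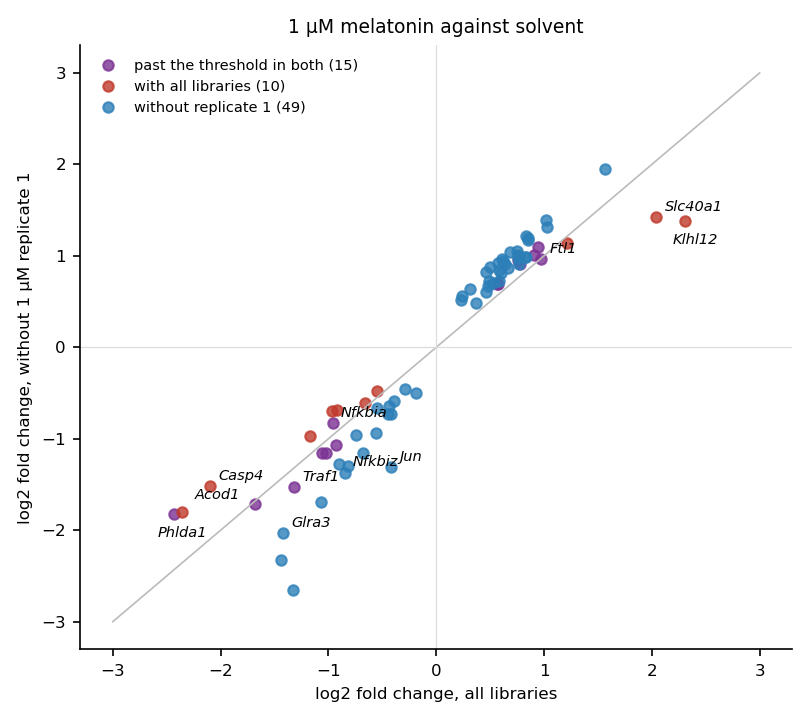
Log2 fold changes of 1 µM melatonin against solvent with all libraries (x axis) and without the library labelled replicate 1 (y axis), 1 point per gene past the threshold in either; the diagonal is equality. The 15 genes called in both lie near the diagonal, and genes called only without replicate 1, such as Jun, lie farther from 0 on the y axis; 2 genes with no count in solvent are not drawn.

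Nfkbia, Tnip1 and Traf1, which encode an inhibitor, a brake and a target of NF-κB signalling, were lower both with all libraries and without replicate 1. Nfkbia (chr12:55489410-55492647, mm10), which encodes IκBα, was at 216, 181 and 136 CPM in solvent and at 73.9, 115 and 84.6 CPM in 1 µM melatonin. The highest melatonin library lay below the lowest solvent library. Its log2 fold change was -0.96 ± 0.17 (adjusted p = 0.00925) with all libraries and -0.83 ± 0.19 (adjusted p = 0.0234) without replicate 1. Tnip1 (chr11:54910785-54962917), which encodes ABIN-1, a ubiquitin-binding brake on NF-κB signalling, had 50.3, 52.9 and 37.3 CPM in solvent and 27.6, 17.4 and 24.4 CPM in melatonin. Here too the groups did not overlap, and the log2 fold change was -1.02 ± 0.20 (adjusted p = 0.0219) with all libraries and -1.16 ± 0.22 (adjusted p = 0.00473) without replicate 1.

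Traf1 (chr2:34941750-34961772), an adaptor of TNF receptors and a target of NF-κB, fell from 37.9, 35.8 and 25.2 CPM to 16.8, 12.7 and 10.1 CPM. The fall amounted to -1.32 ± 0.27 on the log2 scale (adjusted p = 0.0231) and to -1.53 ± 0.31 (adjusted p = 0.00728) without replicate 1. Nfkbiz (chr16:55811375-55838899), which encodes the nuclear co-activator IκBζ, depended on replicate 1. It had 120, 112 and 81.1 CPM in solvent and 93.1, 38.9 and 41.8 CPM in melatonin, so replicate 1 lay within the solvent range while replicates 2 and 3 lay well below it. The log2 fold change was -0.85 ± 0.22 (adjusted p = 0.13) with all libraries and -1.37 ± 0.20 (adjusted p = 0.000155) without it. Nfkb1 (chr3:135584655-135691547), the p105 and p50 subunit, moved the other way: from 52.8, 46.8 and 47.6 CPM to 44.6, 95.9 and 79.9 CPM, a rise of 0.84 ± 0.17 (adjusted p = 0.00612) without replicate 1 that was not called with it (adjusted p = 0.269).

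Of the 24 genes on the list of NF-κB subunits, inhibitors and feedback genes, 3 fell and none rose with all libraries, and the median log2 fold change was -0.26. Without replicate 1, 4 fell, 1 rose and the median was -0.17. Tnfaip3, the deubiquitinase A20, was not called: its levels were 16.7, 23.9 and 20.8 CPM in solvent and 6.26, 9.09 and 11.4 CPM in melatonin, with a log2 fold change of -1.20 ± 0.29 with all libraries (adjusted p = 0.0871, and 0.217 without replicate 1). Rela, the transactivating p65 subunit, had 94.5, 105 and 61.4 CPM against 56.8, 71.2 and 84.6 CPM, and the groups overlapped.

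Upstream sequences of these genes were searched for the NF-κB consensus, since their transcripts moved in the same direction. The 120 bases before the annotated start are shown for 3 genes that fell and have a match, and for Tnf and Traf1, which fell and have no match in the 250 bases searched; capitals mark the matched bases, and sequences are from RefSeq on GRCm38.p6, the build also called mm10.
Nfkbia (chr12:55492648-55492767, minus strand): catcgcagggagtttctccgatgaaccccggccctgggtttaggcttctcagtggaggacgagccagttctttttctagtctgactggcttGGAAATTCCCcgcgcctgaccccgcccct
Tnip1 (chr11:54962941-54963060, minus strand): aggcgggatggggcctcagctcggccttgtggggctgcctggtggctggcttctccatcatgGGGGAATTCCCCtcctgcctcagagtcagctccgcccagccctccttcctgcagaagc
Casp4 (chr9:5308729-5308848, plus strand): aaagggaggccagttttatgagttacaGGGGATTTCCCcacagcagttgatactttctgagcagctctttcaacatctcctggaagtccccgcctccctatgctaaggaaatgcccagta
Tnf (chr17:35202008-35202127, minus strand): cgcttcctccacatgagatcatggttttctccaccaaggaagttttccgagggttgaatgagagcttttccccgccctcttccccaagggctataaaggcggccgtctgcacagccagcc
Traf1 (chr2:34961773-34961892, minus strand): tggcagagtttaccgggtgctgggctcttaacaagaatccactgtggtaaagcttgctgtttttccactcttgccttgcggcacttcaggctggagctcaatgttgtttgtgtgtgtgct

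A match on either strand was found for 4 of the 9 lower genes that have a RefSeq promoter entry (Casp4, Flna, Nfkbia and Tnip1) and for 1 of 5 higher genes (Ftl1). Overlapping matches were counted once per gene. In the table as a whole 4.46% of 27025 genes had a match in at least 1 window, and 3.9% of 32851 single windows held one. Without replicate 1 the counts were 3 of 10 lower genes (Ier3, Nfkbia and Tnip1) and 1 of 18 higher genes. The motifs TGANTCA, recognised by AP-1, and TGACNNNGC, recognised by NRF2 with small Maf proteins, were found in 7.82% and 11.5% of all genes. TGANTCA was in none of the 9 lower and 5 higher genes, nor in the 10 lower and 18 higher genes called without replicate 1. TGACNNNGC was in Nfkbia and Klhl12 of the genes called with all libraries, and in Nfkbia, Kcnq1ot1 and Srp9 of those called without replicate 1. A match describes letters in these windows only.

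Of the inflammatory effectors, Tnf (chr17:35199381-35202007), the cytokine tumour necrosis factor, had 172, 189 and 159 CPM in solvent and 102, 134 and 94 CPM in melatonin. All melatonin libraries lay below all solvent libraries, with a log2 fold change of -0.66 ± 0.14 (adjusted p = 0.03). Without replicate 1 the size was similar, -0.61 ± 0.15, but the test was not passed (adjusted p = 0.0679). Acod1 (chr14:103046977-103056573), the enzyme that makes itaconate, had 9.68, 4.71 and 10 CPM in solvent and 0.153, 2.43 and 2.22 CPM in melatonin. Its fall was -2.36 ± 0.50 (adjusted p = 0.0283) with all libraries and was not called without replicate 1 (-1.80 ± 0.48, adjusted p = 0.0946).

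Casp4 (chr9:5308828-5336783), the caspase that senses cytosolic LPS, had 21.4, 27.5 and 24.6 CPM in solvent and 0.153, 11.5 and 5.46 CPM in melatonin, and its fall of -2.10 ± 0.48 (adjusted p = 0.0486) became -1.52 ± 0.39 (adjusted p = 0.0718) without replicate 1. For Acod1 and Casp4 the lowest of the 6 values was that of replicate 1, at the level of 1 count. For scale, the mean in cells given LPS alone was 600 CPM for Nfkbia, 1248 CPM for Tnf, 1452 CPM for Acod1 and 56.1 CPM for Casp4; Casp4 did not pass the test of LPS against solvent (1.20 ± 0.44, adjusted p = 0.0544).

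The list of 31 cytokines and chemokines, of which 25 were tested, had 1 call, Tnf, and a median log2 fold change of -0.29 that became -0.27 with no call without replicate 1. Cxcl2, a neutrophil chemoattractant, was at 73.1, 100 and 85.2 CPM in solvent and at 19.1, 91.5 and 55.6 CPM in melatonin, and overlapped. Il6 had no count in any of the 6 libraries, and Il1b did not exceed 2.59 CPM in any. Nos2, the inducible nitric oxide synthase, had counts only in solvent replicate 3, at 0.3 CPM. Ptgs2, the inducible cyclooxygenase, had 3.57, 10.7 and 7.19 CPM against 10.5, 10.9 and 8.53 CPM (adjusted p = 0.851, and 0.867 without replicate 1). Of 33 interferon-response genes none passed the test, with a median of -0.21 and, without replicate 1, of -0.18.

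2 further low-level regulators fell in both comparisons. Phlda1 (chr10:111506286-111508645), a pleckstrin-homology protein linked to growth-factor and stress signalling, went from 12.6, 5.97 and 9.89 CPM to 0, 3.25 and 2.05 CPM, a log2 fold change of -2.43 ± 0.41 (adjusted p = 0.00647) and of -1.82 ± 0.35 (adjusted p = 0.00473) without replicate 1. Zc3h12a (chr4:125118423-125127840), which encodes the RNase regnase-1 that degrades cytokine mRNAs, went from 11.4, 16.5 and 24.7 CPM to 5.65, 3.57 and 7.17 CPM. This was -1.68 ± 0.36 (adjusted p = 0.03) and -1.71 ± 0.41 (adjusted p = 0.0427) without replicate 1. Neither gene overlapped between the groups. The list headed MAPK phosphatases and mRNA-decay factors holds both, although Phlda1 is described above as neither. They were the 2 called of its 13 tested genes, and its median was 0.06 with all libraries and -0.09 without replicate 1.

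Dnmt3a, a DNA methyltransferase, had 256, 255 and 234 CPM in solvent and 87, 142 and 166 CPM in melatonin (-0.92 ± 0.17, adjusted p = 0.0166; without replicate 1, -0.69, adjusted p = 0.0602). Flna, the actin cross-linker filamin A, had 244, 239 and 275 CPM against 156, 189 and 172 CPM (-0.55 ± 0.12, adjusted p = 0.0467; without replicate 1, -0.48, adjusted p = 0.133). Rbpsuh-rs3, a processed pseudogene, had 267, 255 and 268 CPM against 79, 155 and 168 CPM (adjusted p = 0.03, and 0.135 without replicate 1). The remaining lower genes were a locus annotated as a miRNA, Gm23935, the antisense transcript B930036N10Rik and the pseudogene Gm14857.

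**Figure D3:**
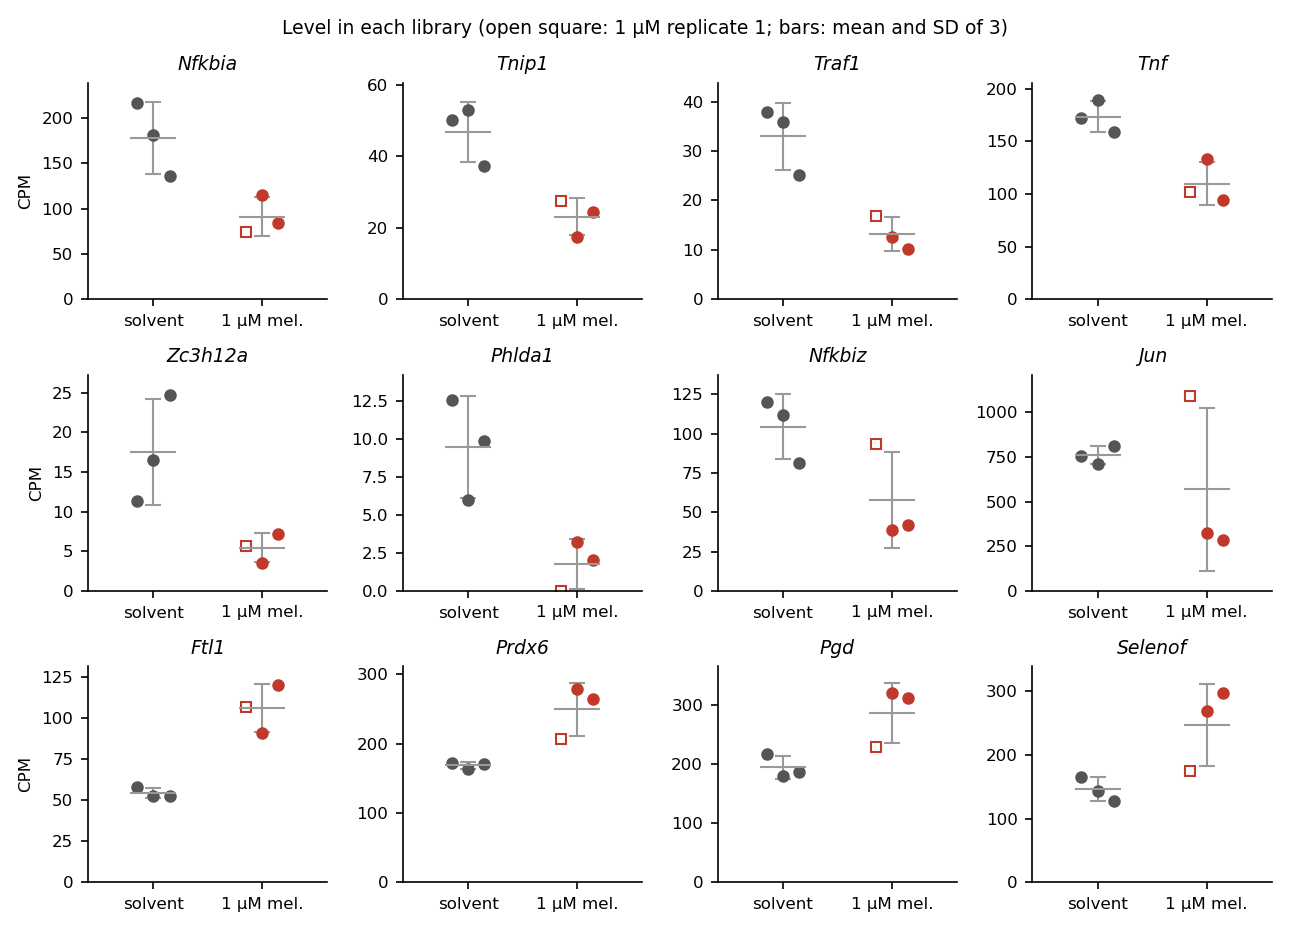
Level of 12 genes (y axes, CPM, from 0) in each of the 3 solvent and 3 melatonin libraries; the open square is 1 µM replicate 1, and grey bars are the mean and SD of 3. The first 6 genes were lower and the ferritin, Prdx6, Pgd and Selenof panels higher in melatonin in all libraries, whereas Nfkbiz and Jun were low in replicates 2 and 3 only.

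Ferritin light chain loci were higher. Ftl1 (chr7:45457944-45459884) had 57.8, 52.4 and 52.4 CPM in solvent and 107, 90.7 and 120 CPM in melatonin, a rise of 0.97 ± 0.19 (adjusted p = 0.022) that was 0.96 ± 0.21 (adjusted p = 0.0173) without replicate 1. Most reads of this family were assigned to loci named as pseudogene copies. Ftl1-ps1 (chr13:74399694-74407346) rose from 502, 546 and 551 CPM to 735, 979 and 1024 CPM, and Ftl2-ps (chr4:125504288-125504839) from 301, 299 and 261 CPM to 468, 572 and 581 CPM. Their log2 fold changes were 0.78 ± 0.14 (adjusted p = 0.0127) and 0.91 ± 0.16 (adjusted p = 0.00647). Without replicate 1 these were 0.91 ± 0.15 (adjusted p = 0.000464) and 1.01 ± 0.16 (adjusted p = 0.000601). How the counting divided reads among the copies is not known, so the sum over named loci is the safer quantity. This sum was 861, 897 and 864 CPM in solvent and 1309, 1641 and 1725 CPM in melatonin. The lowest melatonin library was above the highest solvent library. This also held at every other dose without LPS. The sum was 1649 to 1803 CPM at 0.1 µM, 1096 to 1300 CPM at 10 µM, 1099 to 1158.5 CPM at 100 µM and 1150 to 1682 CPM at 1 mM. All doses were set against the same 3 solvent libraries, and the part of those libraries in the rise was not tested.

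The ferritin heavy chain did not follow in replicate 1. Fth1 had 799, 757 and 754 CPM in solvent and 650, 1034 and 1152 CPM in melatonin, with replicate 1 below and replicates 2 and 3 above the solvent range (adjusted p = 0.739, and 0.453 without replicate 1). Slc40a1 (chr1:45908068-45926523), the iron exporter ferroportin, rose with all libraries, from 4.08, 3.45 and 3.45 CPM to 25.5, 8.6 and 11.1 CPM (2.04 ± 0.46, adjusted p = 0.0486). The highest value was that of replicate 1, and without it the gene was not called (1.42 ± 0.48, adjusted p = 0.263). On the list of iron genes 2 of 14 tested genes rose, Ftl1 and Slc40a1, none fell, and the median log2 fold change was 0.20; without replicate 1 only Ftl1 rose and the median was 0.17.

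Prdx6, Pgd and Selenof were also higher. Prdx6 (chr1:161240112-161251219), a peroxiredoxin that reduces phospholipid peroxides, had 172, 163 and 171 CPM in solvent and 207, 278 and 265 CPM in melatonin. Its rise was 0.57 ± 0.12 (adjusted p = 0.0366) and 0.69 ± 0.13 (adjusted p = 0.00375) without replicate 1. Pgd (chr4:149149991-149166771), the pentose phosphate enzyme 6-phosphogluconate dehydrogenase, had 217, 180 and 187 CPM against 228, 320 and 311 CPM, a rise of 0.56 ± 0.13 (adjusted p = 0.0491) and, without replicate 1, of 0.69 ± 0.13 (adjusted p = 0.0034). In both genes replicate 1 lay just above the solvent range and replicates 2 and 3 well above it. Selenof, a selenoprotein of the endoplasmic reticulum, showed the same order, with 166, 144 and 128 CPM against 174, 268 and 297 CPM (0.76 ± 0.16, adjusted p = 0.0231; without replicate 1, 0.95 ± 0.15, adjusted p = 0.000458).

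Gpx1, the main cytosolic glutathione peroxidase, was called without replicate 1. It had 136, 128 and 104 CPM in solvent and 68.2, 184 and 269 CPM in melatonin, with replicate 1 below and the other 2 above the solvent range (0.88 ± 0.21, adjusted p = 0.0415; with all libraries, adjusted p = 0.613). Of 28 genes on the list of NRF2 targets and antioxidant genes 3 rose and none fell with all libraries (Ftl1, Pgd and Prdx6), with a median log2 fold change of 0.22. Without replicate 1, 4 rose, none fell and the median was 0.27, beside a median of -0.0145 over all genes of that fit.

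Hmox1, Slc7a11 and Nqo1, on the same list, were not called. Hmox1, haem oxygenase 1, had 12.9, 14.6 and 11.8 CPM in solvent and 9.46, 27.1 and 23.6 CPM in melatonin (adjusted p = 0.565, and 0.0964 without replicate 1). Slc7a11, the cystine transporter, had 40.1, 48.1 and 29.8 CPM against 14, 41.7 and 27.5 CPM (adjusted p = 0.489, and 0.828 without replicate 1). Nqo1 was below 1 CPM in all 6 libraries.

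2 other genes rose with all libraries only. Gzf1, a zinc-finger transcriptional repressor, had 16.5, 23.4 and 22 CPM in solvent and 52.2, 38.3 and 52.7 CPM in melatonin (1.21 ± 0.27, adjusted p = 0.0467; without replicate 1, 1.14 ± 0.30, adjusted p = 0.0774). Klhl12, a substrate adaptor of a cullin ubiquitin ligase, had 3.57, 2.36 and 1.35 CPM against 23.5, 6.98 and 5.63 CPM, with its highest value in replicate 1 (2.31 ± 0.50, adjusted p = 0.0364; without replicate 1, 1.38, adjusted p = 0.347). The remaining higher genes were the processed pseudogenes Gm43524 and Gm7204.

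2 immediate early genes were called only without the library labelled replicate 1. Jun (chr4:95049034-95052222) had 757, 711 and 811 CPM in solvent, 1095 CPM in replicate 1 and 326 and 286 CPM in replicates 2 and 3. Replicate 1 was thus the highest and replicates 2 and 3 the lowest of the 6 libraries, and the log2 fold change was -0.42 ± 0.28 (adjusted p = 0.731) with all libraries and -1.31 ± 0.23 (adjusted p = 0.00159) without it. Atf3 had the same order, with 301, 282 and 287 CPM in solvent and 604, 166 and 203 CPM in melatonin, but was not called (adjusted p = 0.332 without replicate 1). Ier3, an early response gene that limits apoptosis, had 66.9, 46.3 and 57.5 CPM against 43.9, 31.2 and 27.3 CPM and fell by 0.96 on the log2 scale without replicate 1 (SE 0.22, adjusted p = 0.0243). Jdp2, a repressor that pairs with Jun proteins, had 48.3, 33.4 and 50.3 CPM against 34.2, 13.5 and 22.9 CPM (-1.28 ± 0.23, adjusted p = 0.00249 without replicate 1). Of 22 immediate early genes none was called with all libraries (median log2 fold change -0.16), and without replicate 1 Jun and Ier3 fell and the median was -0.42.

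Further rises were seen only without replicate 1. Glud1, mitochondrial glutamate dehydrogenase, had 410, 408 and 430 CPM in solvent and 388, 810 and 750 CPM in melatonin (0.91 ± 0.17, adjusted p = 0.00422). Btf3, a chaperone of nascent chains, had 113, 107 and 115 CPM against 76.5, 248 and 212 CPM (1.04 ± 0.18, adjusted p = 0.00102). Rpl32, a ribosomal protein, had 92.1, 100 and 80.8 CPM against 96.3, 187 and 180 CPM (1.01 ± 0.19, adjusted p = 0.00375). In these 3 genes replicate 1 was within or below the solvent range and replicates 2 and 3 were about 2-fold above it.

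Tpi1, the glycolytic triosephosphate isomerase, had 494, 559 and 481 CPM in solvent and 306, 809 and 783 CPM in melatonin (0.64 ± 0.15, adjusted p = 0.0356). Bax, the pro-apoptotic pore protein, had 24, 42.4 and 27.6 CPM against 27.9, 50.6 and 79.4 CPM (1.05 ± 0.26, adjusted p = 0.0462). Of the 66 genes 24 were pseudogenes, 16 higher and 8 lower. How reads were divided between them and their parent genes is not known, so they may not be separate changes. 2 of the 66 had no count in solvent: Cdc42ep2 had 0, 2.27 and 4.44 CPM in melatonin, at least 21-fold above the limit that 3 counts over the 3 solvent libraries set, in the mean of replicates 2 and 3. Hcar2, the receptor for hydroxybutyrate and niacin, had 0, 4.71 and 0.171 CPM, so its call rested on 1 library.

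Glra3 (chr8:55940460-56130070), a glycine receptor subunit, had 56.6, 58.9 and 101 CPM in solvent and 45.5, 19.6 and 15.7 CPM in melatonin (-2.03 ± 0.43, adjusted p = 0.014 without replicate 1). Plp2, a membrane proteolipid, had 42.3, 34.2 and 24.3 CPM against 30.8, 71.6 and 79.2 CPM (1.17 ± 0.27, adjusted p = 0.0297). Wbp11, a splicing factor, had 296, 307 and 270 CPM against 192, 526 and 575 CPM (0.92 ± 0.21, adjusted p = 0.0341). Srp9, a subunit of the signal recognition particle, had 281, 298 and 231 CPM against 312, 492 and 569 CPM (0.98 ± 0.24, adjusted p = 0.0462). None of these 4 was called with all libraries.

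Most other pathways gave no call. Among 25 mitosis and spindle genes, 26 DNA replication genes, 28 unfolded protein and integrated stress response genes, 24 cholesterol genes, 19 LXR and fatty acid genes, 26 ribosome biogenesis genes, 28 lysosome genes and 26 nuclear-encoded respiratory chain genes, none passed the test with or without replicate 1. Their medians with all libraries were -0.21, -0.16, -0.26, 0.13, 0.20, -0.18, 0.12 and -0.05. Without replicate 1 the medians for mitosis, DNA replication and respiratory chain genes were -0.05, 0 and 0.06. The lowest adjusted p in these lists with all libraries was that of Hspa5, the endoplasmic reticulum chaperone BiP, at 1600, 1454 and 1480 CPM in solvent and 1091, 1158 and 1201 CPM in melatonin (-0.39 ± 0.10, adjusted p = 0.0906); the groups did not overlap. Among 19 tested Toll-like receptors and adaptors none was called. Cd14, the LPS co-receptor, had 432, 424 and 420 CPM against 147, 326 and 365 CPM (adjusted p = 0.235, and 0.634 without replicate 1).

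Circadian clock genes, of which 19 were tested, gave no call, with a median log2 fold change of 0.07. Arntl, Nr1d1 and Per2 were at low levels that overlapped between the groups, for Arntl 11.2, 1.57 and 5.09 CPM in solvent and 0.763, 8.92 and 0.341 CPM in melatonin. Of 13 melatonin receptor, binding protein and aryl hydrocarbon receptor target genes, 6 were tested and none was called. Nuclear and RNA-quality transcripts had no call, and their median was -0.13 with all libraries and -0.31 without replicate 1. Their summed level was 19621 to 29261 CPM in solvent and 15294, 12695 and 19530 CPM in melatonin. Every melatonin library thus lay below every solvent library, replicate 3 by a narrow margin. The sum is not of nuclear RNAs only, as it includes Lars2, which encodes a mitochondrial enzyme and whose levels are given further below. Malat1, a nuclear RNA on the list, had a mean of 4009 CPM in solvent and 4404, 3106 and 3151 CPM in melatonin, so replicate 1 was not below that mean. Kcnq1ot1, a nuclear antisense RNA outside that list, had 253, 226 and 236 CPM in solvent and 187, 156 and 145 CPM in melatonin, and was called without replicate 1 (-0.66 ± 0.14, adjusted p = 0.0135) but not with all libraries (adjusted p = 0.0587). The part of these RNAs in the results was not tested. The share of counts on ribosomal RNA genes was 0.752%, 0.817% and 1.18% in solvent and 0.578%, 0.539% and 0.949% in melatonin; its part in the results was not tested.

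**Figure D4:**
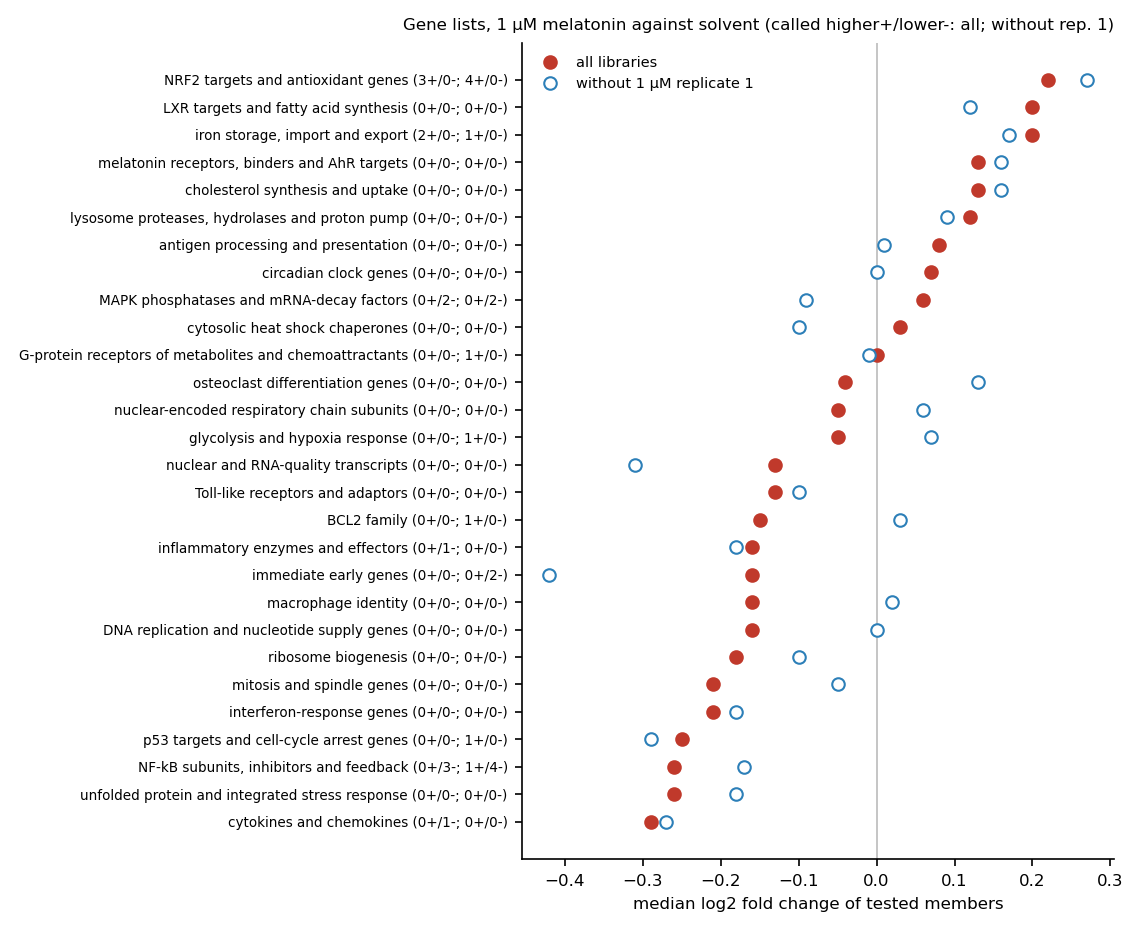
Median log2 fold change (x axis) of the tested members of each gene list with at least 6 tested members (y axis), with all libraries (filled) and without 1 µM replicate 1 (open); the counts after each name are genes called higher and lower, first with all libraries and then without replicate 1. Of the lists drawn, NRF2 targets had the highest median, 0.22, and cytokines the lowest, -0.29, with all libraries, and immediate early genes the lowest, -0.42, without replicate 1; the fibroblast and endothelial markers, near the limit of detection, are not drawn (medians -1.61 of 7 tested and -0.56 of 9).

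The neighbouring doses were tested directly against 1 µM, which needs no solvent library. Against 0.1 µM 4 genes differed (0.0235%), all higher at 1 µM and all predicted genes: Gm10800, Gm21738, Gm26870 and Gm10719. Gm10800 had 40.6, 34.8 and 23.2 CPM at 0.1 µM and 61.8, 243 and 208 CPM at 1 µM, with all 3 values above the lower dose (2.37 ± 0.38, adjusted p = 0.00134). Its solvent libraries had 108, 117 and 121 CPM, so 0.1 µM lay below and 1 µM replicates 2 and 3 above solvent. Without replicate 1, 6 genes differed, none with a gene symbol other than a predicted-gene name.

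Nfkbia, Tnf, Jun and Ftl1-ps1 had values at 0.1 µM that overlapped those at 1 µM. The 0.1 µM libraries had 119, 87.2 and 102 CPM of Nfkbia, 116, 83 and 90.7 CPM of Tnf, 379, 347 and 319 CPM of Jun, and 1088, 1172 and 1013 CPM of Ftl1-ps1. The log2 differences of 1 µM from 0.1 µM were -0.17 ± 0.17 for Nfkbia, 0.19 ± 0.14 for Tnf and -0.26 ± 0.14 for Ftl1-ps1, and none passed the test, which does not show that the doses act alike. Zc3h12a and Tnip1 were lower at 1 µM than at 0.1 µM in every library without passing the test. Zc3h12a had 16, 8.7 and 15.7 CPM at 0.1 µM (-1.30 ± 0.36, adjusted p = 0.622), and Tnip1 had 36.7, 36.8 and 30.5 CPM (-0.58 ± 0.20, adjusted p = 0.794).

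Against 10 µM 3 genes differed (0.0177%). Zc3h12a was lower at 1 µM, where it is given above, than at 10 µM, with 26.8, 13.2 and 17.5 CPM (-1.81 ± 0.36, adjusted p = 0.0459). Id2, an inhibitor of helix-loop-helix factors, was higher, at 192, 111 and 144 CPM against 87, 80.2 and 89.2 CPM (0.80 ± 0.16, adjusted p = 0.0459). Oasl2, an interferon-response gene, was at 0.305, 6.17 and 2.05 CPM at 1 µM and at 0, 0 and 0.149 CPM at 10 µM (adjusted p = 0.017). Without replicate 1, 57 genes differed, 42 higher and 15 lower at 1 µM, of which 29 also passed the test against solvent.

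Jun and Tpi1 were nearer to solvent at 10 µM than in 1 µM replicates 2 and 3. Jun had 689, 667 and 601 CPM at 10 µM, and 1 µM replicates 2 and 3 were lower (-1.09 ± 0.23, adjusted p = 0.0148). Tpi1 had 452, 491 and 430 CPM at 10 µM, and replicates 2 and 3 were higher (0.80 ± 0.15, adjusted p = 0.00495). Cxcl2 had 31.1, 34.3 and 26.3 CPM at 10 µM, and replicates 2 and 3 were higher (1.27 ± 0.18, adjusted p = 9.4e-05), although Cxcl2 was not called against solvent. Nfkbia and Tnf were also low at 10 µM, with 71.9, 90.2 and 75.3 CPM and 105, 99.8 and 94.9 CPM. The log2 differences of 1 µM from 10 µM were 0.20 ± 0.17 and 0.14 ± 0.14, which did not pass the test. Both genes thus lay below every solvent library at 0.1 µM, 1 µM and 10 µM. These doses share the same solvent libraries, and the part of those libraries in the fall was not tested.

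The same dose was also given to cells that then received LPS, and those libraries share none with the comparison above. In LPS-treated cells 104 genes differed between 1 µM melatonin and LPS alone (0.612% of genes tested). Of the 25 genes called without LPS, 8 were among them, which is 32% of the 25 and 7.69% of the 104, and all 8 moved in the same direction: Ftl1-ps1, Ftl2-ps, Prdx6 and Gm43524 upwards and Flna, B930036N10Rik, Gm14857 and Gm23935 downwards. In the fit without replicate 1, 168 genes differed under LPS (0.911%), and 28 of the 66 were among them, which is 42.4% of the 66 and 16.7% of the 168; 20 were higher and 8 lower in both. The ribosomal RNA share was 0.613%, 0.557% and 0.722% in the LPS libraries and 0.136%, 0.123% and 0.131% with 1 µM melatonin and LPS, and its part in these counts was not tested.

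Ftl1-ps1, Ftl2-ps and Prdx6 were called higher in both settings. Ftl1-ps1 had 969, 1046 and 1033 CPM with LPS and 2038, 2052 and 2011 CPM with LPS and melatonin (1.00 ± 0.14, adjusted p = 9.96e-05). The sum over named ferritin light chain loci was 1624, 1648 and 1581 CPM with LPS and 3036, 3016 and 3012 CPM with LPS and melatonin. It was also above LPS alone at every other dose. With LPS it was 2972 to 3520 CPM at 0.1 µM, 2827 to 2963 CPM at 10 µM, 3446 to 3766 CPM at 100 µM and 2093 to 3715 CPM at 1 mM. All doses share the same LPS libraries. Prdx6 had 456, 408 and 434 CPM against 520, 689 and 626 CPM (0.50 ± 0.12, adjusted p = 0.0382). Prdx6 was the 1 gene of 28 on the NRF2 list that rose under LPS, and none of 14 tested iron genes rose there (median log2 fold change -0.09). Ftl1, called without LPS, was not called with it (0.34, adjusted p = 0.474). Jun had 241, 186 and 181 CPM with LPS and 114, 114 and 112 CPM with LPS and melatonin, and fell by 0.83 (SE 0.20, adjusted p = 0.0241) in the fit without replicate 1 but was not called in the fit with it (adjusted p = 0.198).

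NF-κB feedback genes were not called at this dose under LPS. Nfkbia had 626, 551 and 623 CPM with LPS and 566, 601 and 661 CPM with LPS and melatonin (0.02 ± 0.17, adjusted p of 1). Tnf had 1252, 1208 and 1283 CPM against 1157, 1197 and 1237 CPM (-0.06 ± 0.14, adjusted p = 0.939). The test of the difference between the effect with and without LPS did not call either gene: the difference was 0.99 ± 0.24 for Nfkbia (adjusted p = 0.169) and 0.60 ± 0.20 for Tnf (adjusted p = 0.469). It called 8 genes in all (0.0471%), none of which passed the test for 1 µM melatonin alone.

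**Figure D5:**
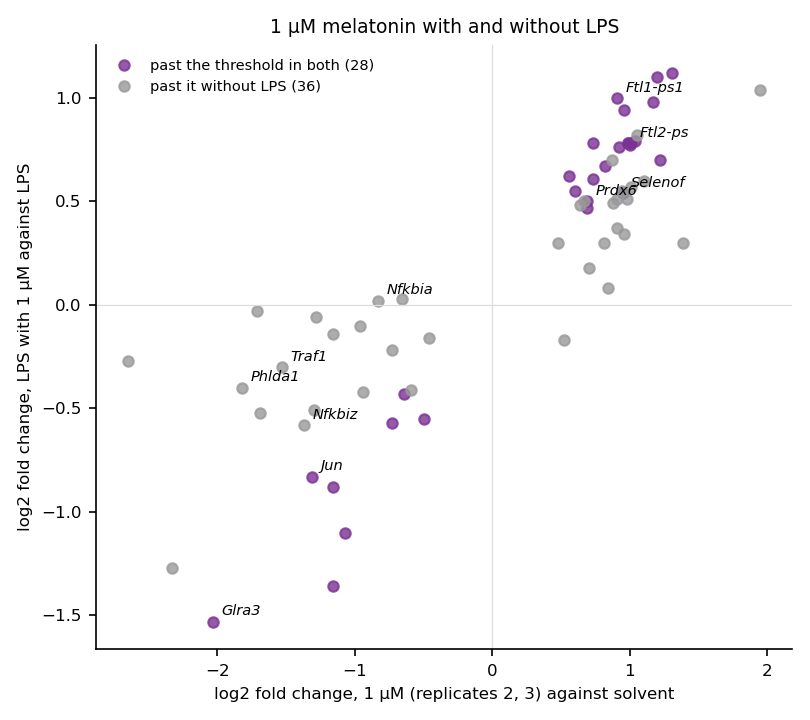
Log2 fold change of 1 µM melatonin replicates 2 and 3 against solvent (x axis) and of LPS with 1 µM melatonin against LPS (y axis), 1 point per gene past the threshold without LPS; purple points, 28 genes, passed it in both. Ferritin loci, Prdx6, Selenof and Jun lie on the same side of 0 on both axes, whereas Nfkbia lies at 0.02 on the y axis; 2 genes with no count in solvent are not drawn.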

How the data were processed

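The libraries were made with Illumina TruSeq reagents from Trizol-extracted RNA, per the labels' protocols. The submitters' processing notes name cutadapt, featureCounts and mm10. The aligner, the annotation and the strand setting are not given in the sources used here, so antisense, overlapping and near-identical genes are uncertain. The authors deposited raw read counts per gene, with no normalization. The authors also deposited FPKM values, a unit scaled to gene length and counted reads, whose levels were not used here. Symbols and biotypes are those the authors deposited with the FPKM values; positions are those of GENCODE M21 on mm10, matched by gene ID.

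From the counts, edgeR 4.0.16 in R 4.3.3 was run on all 36 libraries with 1 mean for each of the 12 groups, filterByExpr, TMM scaling, quasi-likelihood tests (two-sided) and Benjamini-Hochberg adjustment; 16988 genes were tested, and 18450 without the library labelled replicate 1 of 1 µM melatonin. CPM use TMM-scaled library sizes; on the log2 scale a prior count of 2 was added. The standard error of a log2 fold change is its size divided by the square root of the quasi-likelihood F. All 36 libraries held 4203313 to 7590271 counts. The pipeline was tested on simulated data. Gene lists, members and tests were chosen with earlier results of these data known. Genes were named when called with all libraries, by size and lack of overlap when called without replicate 1, by smallest p within a list or contrast, or from a short list of genes of interest; Atf3, Cdc42ep2, Csf1r, Fth1, Gpx1, Lyz2, Nfkb1, Pank3 and Rela were chosen after their values were seen. Mitochondrially encoded genes were not analysed here. Alternatives were DESeq2 1.42.0, its size factors, no count filter, protein-coding genes only, a replicate block, fewer groups and libraries left out.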

Additional observations from a re-analysis of the deposited data

Results flagged for a closer look

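The effect of 1 µM melatonin differed between cells with and without LPS in 8 genes, by the interaction test of edgeR over all libraries; each value is the log2 effect under LPS minus that without LPS. Alox5, which makes leukotriene precursors, had 31.3, 25.3 and 16.6 CPM in solvent and 4.43, 14.6 and 7 CPM in melatonin, against 0, 0.146 and 0 CPM with LPS and 0.905, 0.927 and 3.01 CPM with LPS and melatonin. The difference was 6.05 (adjusted p = 0.0429), a fitted value that rests on 1 count in the LPS group and is no bound. Zfpm1, a GATA cofactor, had a difference of 4.98 (adjusted p = 0.0429) on the same kind of low counts, with at most 0.463 CPM in the LPS libraries and 5.25 to 6.81 CPM with LPS and melatonin. Aes, a transcriptional co-repressor, differed by 1.24 (adjusted p = 0.0429): it had 34.7, 31.4 and 20.2 CPM with LPS and 52.4, 56.7 and 52.9 CPM with LPS and melatonin.

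Lars2, a mitochondrial leucyl-tRNA synthetase, differed by -2.14 (adjusted p = 0.0429), with 6298, 5453 and 8259 CPM with LPS and 768, 796 and 782 CPM with LPS and melatonin, against 7139, 7688 and 12395 CPM in solvent and 4512, 3420 and 6146 CPM in melatonin alone. CT010467.1, annotated as ribosomal RNA, differed by -1.85 (adjusted p = 0.0429). CT010467.1 itself makes up most of the ribosomal RNA share of the libraries. It had 5268, 5321 and 9462 CPM in melatonin alone, where that share was 0.578%, 0.539% and 0.949%. Its call and the change of that share are therefore 1 observation. Lars2 moved in the same direction as the ribosomal RNA share, and the part of that share in its call was not tested. Gm20594 differed by -1.01 (adjusted p = 0.0438) and Gm12096 by -1.26 (adjusted p = 0.0462). Pank3, a pantothenate kinase of coenzyme A synthesis, differed by -1 (adjusted p = 0.0438), with 121, 88.9 and 116 CPM in solvent and 151, 152 and 168 CPM in melatonin, against 120, 147 and 114 CPM with LPS and 89.2, 93.9 and 92.9 CPM with LPS and melatonin. Without the library labelled 1 µM replicate 1 the interaction test called 1 gene, CT010467.1 (-1.99, adjusted p = 0.0322).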

How the results depend on the processing

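Counts of genes past the threshold moved with the settings. For 1 µM melatonin against solvent, 25 genes with all libraries became 23 with DESeq2's size factors, 89 without a count filter, 97 with DESeq2, 15 among protein-coding genes only, 92 when 1 mM replicate 3 was left out together with 1 µM replicate 1, and 0 in edgeR on the 2 groups alone (820 at an unadjusted p under 0.05); leaving out 1 library gave 3 to 66. Without replicate 1, 66 genes became 130 without a count filter, 241 with DESeq2, 33 among protein-coding genes and 189 in the 2 groups alone, and leaving out 1 further library gave 27 to 50. Against 0.1 µM, 4 genes became 18 without a filter, 7 without both doubtful libraries and 0 in the 2 groups alone (550 at an unadjusted p under 0.05, and 6 by DESeq2 over all groups), with 2 to 7 on leaving out 1 library. Against 10 µM, 3 genes became 35 without a filter, 20 with DESeq2, 76 without both doubtful libraries and 0 in the 2 groups alone (656 at an unadjusted p under 0.05), with 0 to 57 on leaving out 1 library, 57 being without 1 µM replicate 1. For the interaction with LPS, 8 genes became 40 without a filter and 26 with DESeq2, with 0 to 6 on leaving out 1 library. The cause was not tested.

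Replicate numbers showed no pairing of solvent with 1 µM libraries. Same-numbered libraries correlated at -0.0247, 0.00202 and -0.00242 in their deviations from the group means. Of these pairs 0 of 3 correlated best with their own number. The 1 µM deviations include those of the outlying replicate 1. Between solvent and 10 µM the correlations were 0.00531, 0.0176 and 0.0125, and 3 of 3 correlated best with their own number. Correlations this near 0 do not settle whether replicates were paired. With a replicate block the counts were 20 with all libraries, 64 without replicate 1, 5 against 0.1 µM, 1 against 10 µM and 5 for the interaction. No named gene that was called changed direction under these settings; genes that were not called are given no direction. Nfkbia with all libraries kept its call in 11 of 13 settings and Phlda1 in 12 of 13, whereas Pgd, Flna and Slc40a1 kept it in 3 of 13. Without replicate 1, Nfkbiz, Jun, Ftl1-ps1, Selenof and Btf3 kept theirs in 12 of 12. Genes below 0.512 CPM are within 3 counts of 0 in these libraries and cannot be compared at this depth.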
